A study of Heterocephalus glaber and Cavia porcellus and Spalacopus cyanus with 7 samples.

Results

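The genes described here are 10 antioxidant genes, namely 8 enzymes that remove superoxide and peroxides or keep those enzymes reduced (Sod1, Sod2, Cat, Gpx1, Gpx4, Prdx1, Prdx3 and Txnrd1), the transcription factor gene Nfe2l2, which encodes NRF2, and Keap1, which encodes its inhibitor. They were chosen by name and matched to gene symbols without regard to case. All 10 had an entry among the 26623 entries counted in naked mole-rat oocytes and among the 25603 counted in guinea pig oocytes, and Cat stood on 2 rows in guinea pig. RNA was sequenced from fully grown and late growing oocytes, freed from follicles mechanically and stripped of cumulus cells by pipetting. The guinea pig sample was 1 library in which oocytes of 3 females aged 6 to 9 months were merged, and the naked mole-rat samples were 5 libraries from 5 females aged 1 to 8 years. Naked mole-rat replicates 4 and 5 carry the letter O in their titles, replicates 2 and 3 carry the letter Y, and replicate 1 carries none and was counted in a table of its own, while the letters are not explained in the sources used here. A library of 1 coruro, another South American rodent, was not used here. No strain, genotype or treatment was named.

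Oocytes rely on mitochondrial respiration and can stay in the ovary for much of an animal's life, so the handling of superoxide and hydrogen peroxide is a standing theme of oocyte biology. Superoxide dismutases turn superoxide into hydrogen peroxide, which catalase, glutathione peroxidases and peroxiredoxins then remove, the peroxidases at the cost of reduced glutathione or thioredoxin and ultimately of NADPH. NRF2 switches on many genes of this system, and in unstressed cells KEAP1 holds it for ubiquitination by a CUL3 ligase and degradation, so that NRF2 activity is set largely at the protein level, which RNA counts do not measure.

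Libraries held 24515642 counts in guinea pig and 13512223 to 29561451 counts in naked mole-rat, and levels are given as CPM, the count of a gene scaled to a library total of 1e+06. At these depths 3 counts correspond to 0.122 CPM in guinea pig and to 0.101 to 0.222 CPM in naked mole-rat. CPM is not corrected for transcript length, so levels are compared between libraries and not between genes. Of 17 oocyte marker entries, 15 reached 1 CPM in every naked mole-rat library, and in guinea pig 15 of 16 did. Markers of granulosa cells, the somatic cells that surround the oocyte, were also found in every library, and their summed level was 814 CPM in guinea pig, 6620 CPM in naked mole-rat replicate 1, 1861 CPM in replicate 5 and 568 to 905 CPM in replicates 2 to 4. Replicate 1 also had the lowest summed oocyte markers (4977 CPM, against 9124 to 11129 CPM in replicates 2 to 5) and the highest stroma markers (2123 CPM, against 55.1 to 581 CPM). It is therefore treated separately wherever a value rests on it, although its part and that of granulosa RNA in any single gene was not tested. In such bulk libraries fewer cells of a type and less RNA per cell cannot be told apart.

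For the superoxide dismutases the single guinea pig library lay outside the naked mole-rat range in opposite directions, with or without replicate 1. The margins were 1.72-fold below the lowest naked mole-rat library for Sod1 and 1.51-fold above the highest for Sod2. Sod1, the copper and zinc enzyme of the cytosol, had 129 CPM in guinea pig (95% exact Poisson interval 124 to 133), against 229, 235, 222, 251 and 316 CPM in naked mole-rat replicates 1 to 5. The guinea pig library thus lay below every naked mole-rat library, the 5 naked mole-rat libraries spanned 1.42-fold, and the highest was replicate 5, not replicate 1. Sod2, the manganese enzyme of mitochondria, had 104 CPM in guinea pig (99.7 to 108), against 68.7, 31.9, 48.4, 41.0 and 59.7 CPM in naked mole-rat replicates 1 to 5. Here guinea pig lay above every naked mole-rat library, and replicates 1 and 5 were the highest naked mole-rat libraries. Relative to the naked mole-rat mean, guinea pig Sod1 was 0.514-fold (mean 250 ± 38.0 CPM, SD, n = 5) and guinea pig Sod2 2.08-fold (mean 49.9 ± 14.6 CPM, SD, n = 5).

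Catalase, the haem enzyme of peroxisomes that splits hydrogen peroxide without a reductant, varied most between naked mole-rat libraries. Cat had 51.2 CPM in guinea pig (48.4 to 54.1, both rows summed), against 47.2, 0, 5.21, 5.67 and 7.68 CPM in naked mole-rat replicates 1 to 5. Replicate 1 was 6.15 times the highest of the other libraries, and replicate 2 had 0 counts among 27279716, which allows up to 0.110 CPM. Replicates 3, 4 and 5 had 72, 159 and 227 Cat counts. The naked mole-rat mean was 13.2 ± 19.3 CPM (SD, n = 5) with replicate 1 and 4.64 ± 3.27 CPM (SD, n = 4) without it. The guinea pig rows held 245 counts (9.99 CPM, interval 8.78 to 11.3) and 1010 counts (41.2 CPM, interval 38.7 to 43.8), and neither row alone exceeded naked mole-rat replicate 1.

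Gpx1 and Gpx4, selenoenzymes that reduce hydrogen peroxide and, in the case of Gpx4, lipid hydroperoxides in membranes, also stood out in replicate 1. Gpx1 had 25.6 CPM in guinea pig (23.7 to 27.7), against 50.3, 6.23, 6.52, 10.1 and 18.0 CPM in naked mole-rat replicates 1 to 5. Gpx4 had 10.8 CPM in guinea pig (9.51 to 12.1), against 31.1, 7.73, 4.71, 6.31 and 10.1 CPM in naked mole-rat replicates 1 to 5. For both genes the guinea pig level fell inside the naked mole-rat range and above replicates 2 to 5, though for Gpx4 the guinea pig interval included the level of replicate 5. The naked mole-rat means were 18.2 ± 18.5 CPM for Gpx1 and 12.0 ± 10.9 CPM for Gpx4 (SD, n = 5 each), and without replicate 1 they were 10.2 ± 5.46 and 7.21 ± 2.28 CPM (SD, n = 4 each). Gpx1, like Sod1 and Prdx1, has processed copies in the human genome, and the sources used here do not say how reads with several matches were counted, so that the levels of these 3 genes are uncertain where such copies exist.

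**Figure D1:**
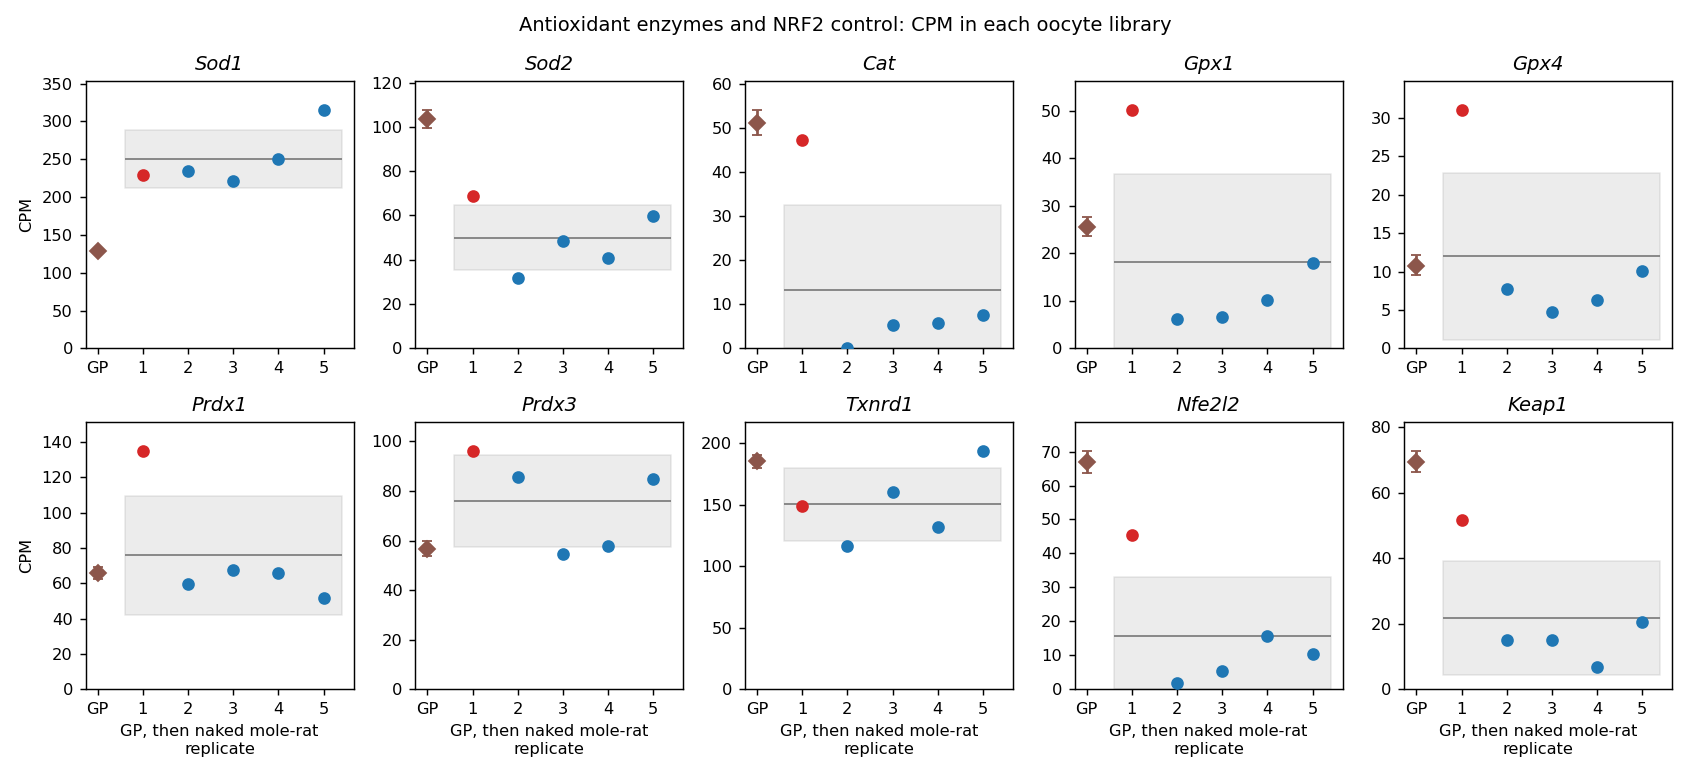
CPM of each of the 10 genes in the guinea pig library (GP, diamond with its 95% Poisson interval) and in naked mole-rat replicates 1 (red) to 5 (blue), 1 panel a gene, with the line and the grey band giving the naked mole-rat mean and SD (n = 5). Replicate 1 is the highest naked mole-rat point in 8 panels, by the widest margin for Cat (47.2 CPM, next highest 7.68 CPM), while Sod1 and Txnrd1 are highest in replicate 5.

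Genes of the thioredoxin branch spanned 1.66-fold (Txnrd1) to 2.62-fold (Prdx1) over the 5 naked mole-rat libraries, less than Gpx4 (6.60-fold) and Gpx1 (8.06-fold). The dismutases spanned as little, 1.42-fold for Sod1 and 2.15-fold for Sod2. Prdx1, a cytosolic peroxiredoxin, had 65.9 CPM in guinea pig (62.7 to 69.2), against 135, 59.6, 67.7, 65.7 and 51.7 CPM in naked mole-rat replicates 1 to 5. Without replicate 1 the naked mole-rat libraries spanned 1.31-fold, and the guinea pig level lay among them. Prdx3, the mitochondrial peroxiredoxin, had 56.6 CPM in guinea pig (53.6 to 59.6), against 96.3, 85.7, 54.5, 57.9 and 84.8 CPM in naked mole-rat replicates 1 to 5, with replicates 3 and 4 near the guinea pig level and the others higher. Txnrd1, the cytosolic selenoenzyme that returns thioredoxin to its reduced state with NADPH, had 185 CPM in guinea pig (180 to 191), against 149, 116, 160, 132 and 194 CPM in naked mole-rat replicates 1 to 5. The guinea pig level of Txnrd1 was within the naked mole-rat range, exceeded only by replicate 5. Naked mole-rat means were 76.0 ± 33.7 CPM for Prdx1, 75.8 ± 18.5 CPM for Prdx3 and 150.2 ± 29.5 CPM for Txnrd1 (SD, n = 5 each).

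Both control genes were higher in guinea pig than in any naked mole-rat library, and both were highest among naked mole-rat libraries in replicate 1. Nfe2l2 had 67.0 CPM in guinea pig (63.8 to 70.3), against 45.3, 1.80, 5.50, 15.7 and 10.5 CPM in naked mole-rat replicates 1 to 5. Keap1 had 69.5 CPM in guinea pig (66.2 to 72.8), against 51.6, 14.9, 15.1, 6.85 and 20.4 CPM in naked mole-rat replicates 1 to 5. The lowest values, replicate 2 for Nfe2l2 and replicate 4 for Keap1, came from 49 and 192 counts. Nfe2l2 had the widest spread of the 9 genes found in every library, 25.2-fold from highest to lowest over 5 libraries and 8.74-fold over replicates 2 to 5, and Keap1 spanned 7.53-fold and 2.98-fold over the same libraries. The naked mole-rat means were 15.8 ± 17.3 CPM for Nfe2l2 and 21.8 ± 17.4 CPM for Keap1 (SD, n = 5 each), and without replicate 1 they were 8.37 ± 6.04 and 14.3 ± 5.60 CPM (SD, n = 4 each).

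Library dependence within naked mole-rat was then set out by dividing each library by the mean of the other 4. Replicate 1 was above every other library for 8 of the 10 genes, where 42.9% of the 14414 entries with a mean of at least 1 CPM showed the same, and more than 2 times above every other library for 5 of them (21.6% of all entries). These 5 were Cat, at 10.2 times the mean of the other 4 libraries, Nfe2l2 at 5.41 times, Gpx1 at 4.93 times, Gpx4 at 4.31 times and Keap1 at 3.60 times. Replicate 1 was more than 4 times above every other library for Cat alone (8.12% of all entries). Prdx1 was 2.21 times, Sod2 1.52 times and Prdx3 1.36 times that mean, whereas Txnrd1 and Sod1 were at 0.987 and 0.894 times. The median log2 ratio of replicate 1 to the other 4 was 1.497 for the 10 genes and 0.24 for all entries. When the totals were replaced by TMM effective library sizes (trimmed mean of M values), replicate 1 was highest for 6 of the 10 genes (34.9% of all entries), with Sod2 and Prdx3 no longer among them, while the count of genes more than 2 times above stayed at 5 (16.6%). No other library was highest for more than 2 of the 10, replicate 5 leading for Sod1 and Txnrd1 (17.3% of all entries). By the gap to the nearest library relative to the whole range (Dixon's criterion), replicate 1 stood apart for 4 of the 10 genes, Cat, Prdx1, Gpx4 and Gpx1, where some library stood apart for 19% of all entries. At the low end, replicate 1 was below every other library for none of the 10 genes (24.3% of all entries) and replicate 2 for 5, namely Sod2, Cat, Gpx1, Txnrd1 and Nfe2l2 (20.2%). The highest of the 5 libraries was less than 2 times the lowest for Sod1, Prdx3 and Txnrd1 (21.2% of all entries). Over replicates 2 to 5 the highest level was less than 2 times the lowest for 5 genes, with Sod2 and Prdx1 added (39.3%).

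**Figure D2:**
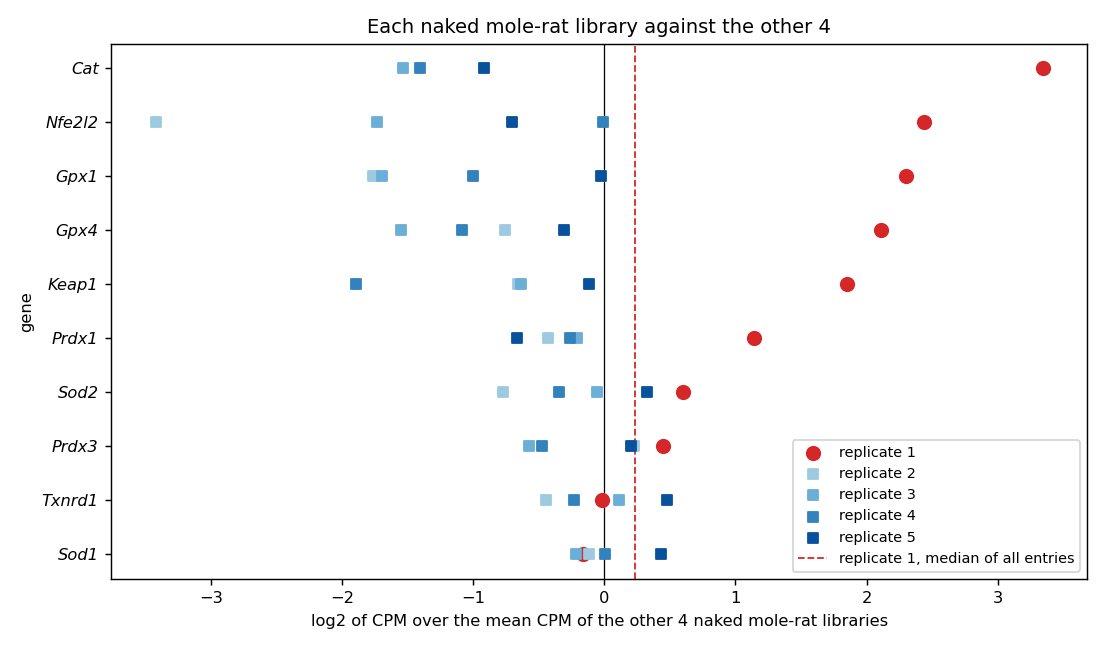
The log2 ratio of each naked mole-rat library to the mean of the other 4 (x axis) for each gene (y axis), replicate 1 as red circles and replicates 2 to 5 as blue squares, with the median of replicate 1 over all entries (0.24) as a dashed line. Replicate 1 runs from 3.35 for Cat to -0.16 for Sod1, and Cat in replicate 2, with 0 counts, has no point.

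Summed markers of granulosa, stroma and immune cells were highest in replicate 1, as were most of these genes, and those of erythrocytes and endothelial cells were not. Replicate 1 was the highest library for 13 of 15 granulosa marker entries that averaged at least 1 CPM, with none of the 16 granulosa entries at 0. It was also highest for 9 of 9 such stroma entries, with 1 of 12 at 0. Over all entries averaging at least 1 CPM replicate 1 was highest for 42.9%. Summed immune markers were 117 CPM in replicate 1 and 10.9 to 30.8 CPM in replicates 2 to 5, with Adgre1 and Lyz at 0 in all 5. Cd74 alone gave 98.6 CPM of the immune sum in replicate 1. Replicate 1 was the highest library for 3 of 5 immune entries averaging at least 1 CPM (42.9% of all entries). Summed erythrocyte markers were 24.3 CPM in replicate 1, against 11.6 to 46.5 CPM in replicates 2 to 5, with Ahsp at 0 in all 5, though the list had no haemoglobin entry and Epb42 alone gave 19.6 CPM of the sum in replicate 1. Endothelial markers summed to 107 CPM in replicate 1, against 115 to 279 CPM in replicates 2 to 5. Stress and immediate early genes summed to 1196 CPM in replicate 1 and 444 to 696 CPM in replicates 2 to 5. The part of any of these in the levels of the 10 genes was not tested.

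**Figure D3:**
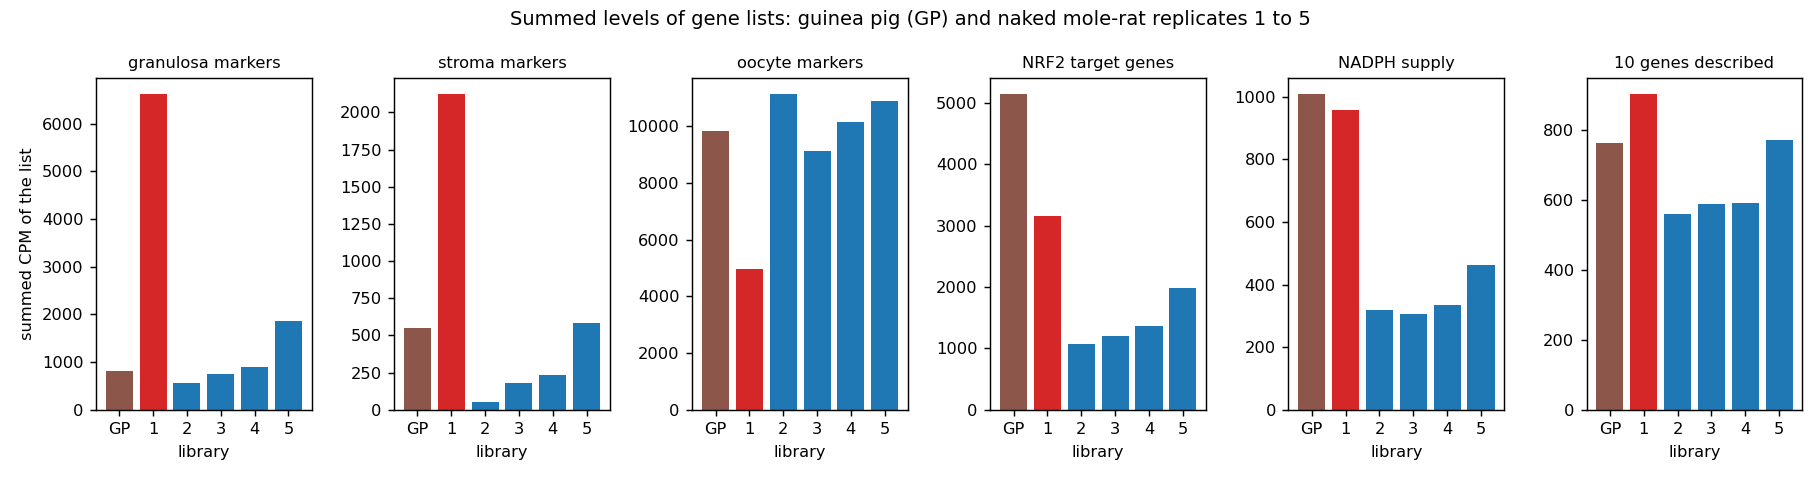
Summed CPM (y axis, each panel with its own scale from 0) of 3 marker lists, 2 pathway lists and the 10 genes in the guinea pig library (GP) and naked mole-rat replicates 1 (red) to 5 (blue). Granulosa and stroma markers, NRF2 target genes and NADPH supply genes are highest among naked mole-rat libraries in replicate 1 and next highest in replicate 5, while oocyte markers are lowest in replicate 1 (4977 CPM).

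In the contrast between species, the single guinea pig library allowed no test, and a gene was called different where guinea pig exceeded the highest naked mole-rat library more than 4 times, or fell more than 4 times short of the lowest. None of the 10 genes was called higher, where 8.95% of 10298 genes matched by symbol were, and none was called lower, where 8.34% were. With 2 times in place of 4 times the counts were also 0, against 18.5% and 15.1% of all genes. Guinea pig lay above every naked mole-rat library for 4 genes, Nfe2l2, Cat, Keap1 and Sod2 (37.2% of all genes), and below every one for Sod1 (29.1%). The margins over the highest naked mole-rat library were 1.51-fold for Sod2, 1.48-fold for Nfe2l2, 1.35-fold for Keap1 and 1.08-fold for Cat, and the lowest naked mole-rat library exceeded guinea pig by 1.72-fold for Sod1. Gpx1, Gpx4, Prdx1, Prdx3 and Txnrd1 lay within the naked mole-rat range. Of the 10 genes, Cat, Gpx1, Gpx4 and Nfe2l2 entered the contrast only through the guinea pig library, since they did not reach the minimum of 100 counts in every naked mole-rat library. The share of the 10 genes above the range was thus near that of all genes, 1 gene lay below it, and the median log2 ratio of guinea pig to the naked mole-rat mean was 0.40 for the 10 genes and 0.12 for all genes.

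Those margins rested on replicate 1, the highest naked mole-rat library for each of the 4 genes. Against replicates 2 to 5, guinea pig was more than 4 times above every library for Cat and Nfe2l2 (13.8% of all genes) and more than 4 times below for none (9.54%), where the highest of those libraries was 7.68 CPM for Cat and 15.7 CPM for Nfe2l2. Keap1 then exceeded the highest remaining library by 3.40-fold, and Gpx1 and Gpx4 also lay above the remaining range. This made 6 genes above that range (46.4% of all genes) and left Sod1 below it (32.2%). Cat, Nfe2l2, Gpx1 and Gpx4 entered the contrast only through guinea pig, so for these genes the filter favoured a high guinea pig level. Without replicate 1, guinea pig was 11.03 times the naked mole-rat mean for Cat, against 3.89 times with it, 8.003 times against 4.25 times for Nfe2l2, and 4.85 times against 3.19 times for Keap1. The values for Cat rest on the sum of its guinea pig rows. With the row of fewer counts alone the log2 ratio to the mean of all 5 libraries was -0.40, with the row of more counts alone it was 1.65, and with the sum it was 1.96. Either row alone lay within the naked mole-rat range and left 3 genes above it, and the row of fewer counts, at 9.99 CPM, was not 4 times above replicates 2 to 5 either. The same ratio hardly moved for Sod1, at 0.503 without replicate 1 and 0.514 with it, for Sod2 at 2.29 and 2.08, and for Txnrd1 at 1.23 both ways. The median log2 ratio over all genes was 0.29 without replicate 1 and 0.12 with it. Beside these values, summed granulosa markers (814 CPM) and stroma markers (547 CPM) in guinea pig lay within the naked mole-rat range, but single markers moved. Of 11 stroma entries tested 7 lay above the range and none below, with 3 called higher and a median log2 ratio of 1.92. Of 16 granulosa entries 1 lay above and 5 below, with 1 called higher, 2 called lower and a median of -1.52. Over all genes 37.2% lay above the range, 29.1% lay below it, 8.95% were called higher and 8.34% lower. Col3a1 and Dcn, both called higher, entered only through guinea pig, as did Col1a2 and Acta2, which lay above the range. For such stroma entries the filter favoured a high guinea pig level. Endothelial markers summed to 597 CPM in guinea pig, against 107 to 279 CPM in naked mole-rat, and the part of these markers in the contrast was not tested. The guinea pig oocytes were pooled from 3 females, sequenced as 1 library and counted on another genome, so that species, animals, library and annotation cannot be told apart.

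**Figure D4:**
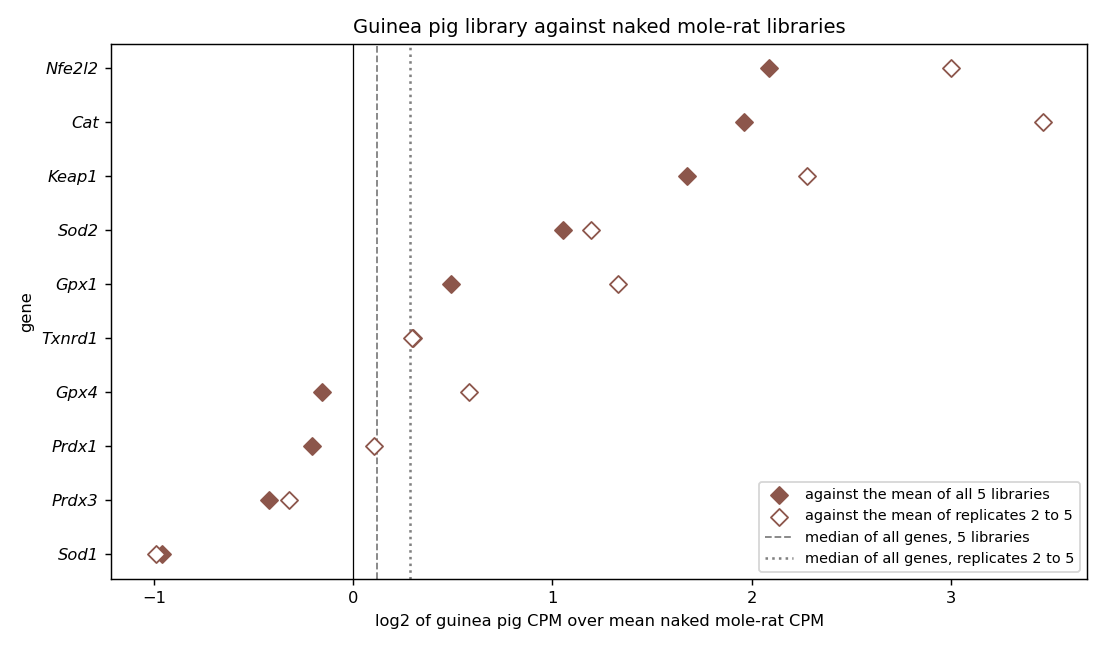
The log2 ratio of guinea pig CPM to the mean naked mole-rat CPM (x axis) for each gene (y axis), against all 5 naked mole-rat libraries (filled) and against replicates 2 to 5 (open), with the medians of all genes as dashed (0.12) and dotted (0.29) lines. Leaving out replicate 1 moves Cat by the most and leaves Sod1, Sod2, Prdx3 and Txnrd1 close to their place.

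Ratios between related genes within a library do not depend on the library total, although they hold the lengths of both transcripts and their annotation in each genome. Sod2 over Sod1 was 0.806 in guinea pig (95% exact binomial interval 0.764 to 0.849), against 0.300, 0.136, 0.218, 0.164 and 0.189 in naked mole-rat replicates 1 to 5. The guinea pig ratio was above every naked mole-rat library, replicate 1 included, and the naked mole-rat mean was 0.201 ± 0.0631 (SD, n = 5). Gpx4 over Gpx1 was 0.420 in guinea pig (0.363 to 0.486), against 0.619, 1.24, 0.722, 0.625 and 0.561 in naked mole-rat replicates 1 to 5, so that guinea pig lay below all of them and replicate 2 lay above the rest. Replicate 1, which was apart from the others for the levels of both glutathione peroxidases, was not apart for their ratio.

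Nfe2l2 over Keap1 was 0.964 in guinea pig (0.900 to 1.03), against 0.878, 0.120, 0.365, 2.29 and 0.513 in naked mole-rat replicates 1 to 5. This ratio of factor to inhibitor transcripts was scattered among naked mole-rat libraries, the highest being replicate 4 and the lowest replicate 2, and guinea pig fell within their range. Prdx3 over Prdx1 was 0.859 in guinea pig (0.799 to 0.923), against 0.712, 1.44, 0.805, 0.882 and 1.64 in naked mole-rat replicates 1 to 5, again with guinea pig inside the range. Cat over Gpx1 was 1.998 in guinea pig (1.81 to 2.20), against 0.940, 0, 0.800, 0.562 and 0.427 in naked mole-rat replicates 1 to 5. The guinea pig value was the highest of the 6, but it rests on the sum of both Cat rows.

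**Figure D5:**
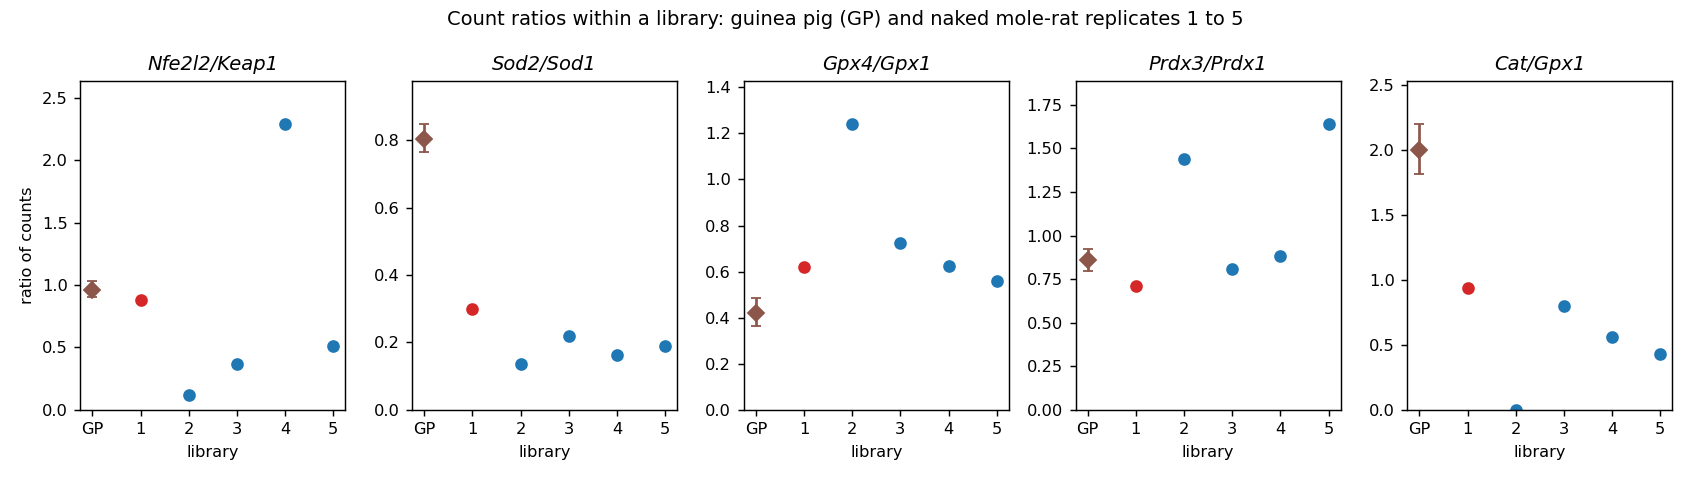
Ratios of counts between 5 pairs of genes (y axis, each panel with its own scale from 0) in the guinea pig library (GP, diamond with its 95% binomial interval) and in naked mole-rat replicates 1 (red) to 5 (blue). Sod2 over Sod1 is higher in guinea pig (0.806) than in any naked mole-rat library, Gpx4 over Gpx1 is lower (0.420), and Nfe2l2 over Keap1 is scattered across naked mole-rat libraries.

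The naked mole-rat libraries lettered O and Y were compared with edgeR's quasi-likelihood test, with 2 libraries a letter. None of the 10 genes passed an adjusted p of 0.05 in either direction, nor did any of the 15079 entries tested (0% higher and 0% lower in O). With edgeR 707 entries and none of the 10 genes had an unadjusted p under 0.05, and with DESeq2 1129 entries and 1 of the 10 genes had one, while 71 entries and none of the 10 genes were called. The ratio furthest from 0 was that of Nfe2l2, with 15.7 and 10.5 CPM in the O libraries, against 1.80 and 5.50 CPM in the Y libraries, a log2 ratio of 1.75 (SE 0.85, edgeR unadjusted p = 0.063, adjusted p = 1.00). Both O libraries exceeded both Y libraries for Sod1, Cat, Gpx1 and Nfe2l2, that is for 4 of the 10 genes, against 23.4% of all entries. The log2 ratios of O to Y were 1.25 for Cat (SE 1.65), 1.00 for Gpx1 (SE 0.70) and 0.18 for Sod1 (SE 0.31), and Keap1, the inhibitor, stood at -0.29 (SE 0.66). The other 5 genes had log2 ratios between -0.23 and 0.26, and none of the 10 genes was lower in both O libraries than in both Y libraries (11.8% of all entries). Beside these values, the granulosa markers had a median log2 ratio of 1.66, with 13 of 15 positive, and their part was not tested.

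The partners of these enzymes and of NRF2 were followed in lists of related genes. Among 14 other superoxide and peroxide enzymes, replicate 1 was the highest naked mole-rat library for 10 of the 12 entries averaging at least 1 CPM (42.9% of all entries). Of 11 tested, guinea pig was called higher for Sod3, the secreted dismutase, and Gpx2 (8.95% of all genes), and lower for none (8.34%). Both entered the contrast only through guinea pig, where they had 214 and 168 counts, so that with so few counts in naked mole-rat these calls were largely fixed by the filter. Sod3 had 8.73 CPM in guinea pig, against 1.85, 0, 0, 0.143 and 0 CPM in naked mole-rat replicates 1 to 5, and Gpx2 had 6.85 CPM in guinea pig, against 0 counts in all 5 naked mole-rat libraries. The more abundant Sesn1, Prdx6, Prdx2 and Ccs, the copper chaperone for SOD1, were not called, and Ccs, with 16.8 CPM in guinea pig against 11.7 to 29.7 CPM in naked mole-rat, lay within the naked mole-rat range, whereas Sod1 lay below it.

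Among thioredoxin and glutaredoxin genes, 12 of 14 had a naked mole-rat entry. Replicate 1 was highest for 7 and lowest for 3 of them, shares not far from those of all entries (42.9% and 24.3%). Of 11 tested, guinea pig lay above the naked mole-rat range for 4 and below it for 4 (37.2% and 29.1% of all genes). The median log2 ratio of guinea pig to the naked mole-rat mean was 0.44. Guinea pig was called lower for Txnip and Txnrd2 (8.34% of all genes). Txnip, an inhibitor of thioredoxin, had 18.7 CPM in guinea pig (17.0 to 20.5), against 868, 1611, 1473, 1412 and 1205 CPM in naked mole-rat replicates 1 to 5. The lowest naked mole-rat library, replicate 1, was 46.3 times the guinea pig level. Txnrd2, the mitochondrial counterpart of Txnrd1, had 7.75 CPM in guinea pig, against 38.4 to 95.6 CPM in naked mole-rat, while Txnrd1 did not leave the naked mole-rat range. Txnl1 and Glrx3 had 66.3 and 28.0 CPM in guinea pig, below the naked mole-rat ranges of 118 to 225 CPM and 62.9 to 109 CPM but not by 4 times.

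Glutathione genes summed to 4290 CPM in guinea pig, against 466 to 705 CPM in naked mole-rat. Of 12 tested, 8 lay above the naked mole-rat range and 1 below it (37.2% and 29.1% of all genes). In guinea pig 3 were called higher and 1 lower (8.95% and 8.34% of all genes). Much of the guinea pig sum came from Abcc1, an exporter of glutathione conjugates, with 2810 CPM in guinea pig against 67.1 to 177 CPM in naked mole-rat. Abcc1 and Gstm3 were called higher in guinea pig. So was Gsta4, with 788 counts in guinea pig, against 16, 0, 0, 0 and 0 counts in naked mole-rat replicates 1 to 5, which entered only through guinea pig and whose call the filter largely fixed. Mgst1, a microsomal glutathione transferase, was called lower and entered only through naked mole-rat, with 0.938 CPM in guinea pig against 8.06 to 29.2 CPM in naked mole-rat. Gclc, the catalytic subunit of the rate-limiting ligase, had 828 CPM in guinea pig against 179 to 240 CPM in naked mole-rat, a margin of 3.46-fold over the highest library, and its regulatory subunit Gclm had 8.40 CPM in guinea pig against 4.33 to 46.5 CPM in naked mole-rat. Gsr, which reduces oxidised glutathione, had 97.5 CPM in guinea pig against 31.3 to 93.2 CPM in naked mole-rat.

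NADPH supply genes summed to 1008 CPM in guinea pig and to 959, 319, 304, 334 and 464 CPM in naked mole-rat replicates 1 to 5, replicate 1 being highest for 7 of 10 genes (42.9% of all entries). Of these Me1, malic enzyme, was called higher in guinea pig, with 129 CPM against 1.45 to 19.1 CPM in naked mole-rat, where replicate 3 was below the minimum count, and Nadk lay above the naked mole-rat range without a call, with 179 CPM against 56.3 to 96.7 CPM. The 20 genes listed as NRF2 targets, which include Cat, Prdx1 and Txnrd1, summed to 5138 CPM in guinea pig and to 3160, 1070, 1195, 1369 and 1980 CPM in naked mole-rat replicates 1 to 5. Abcc1, which is also among the glutathione genes, alone gave 2810 CPM of the guinea pig sum, against 67.1 to 177 CPM in naked mole-rat. Replicate 1 was the highest naked mole-rat library for 16 of the 20 (42.9% of all entries). Guinea pig lay above the range for 9 and below it for 1 of 17 tested (37.2% and 29.1% of all genes), with Abcc1 and Me1 called higher (8.95%). The gene below the range was Fth1, an iron storage gene, with 114 CPM in guinea pig against 202 to 1227 CPM in naked mole-rat, whereas its partner Ftl had 306 CPM in guinea pig against 119 to 537 CPM.

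Of 17 further genes of NRF2 control, replicate 1 was highest for 5 and lowest for 4 (42.9% and 24.3% of all entries). Guinea pig lay above the naked mole-rat range for 7 and below it for 4 of 16 tested, shares near those of all genes (37.2% and 29.1%). None was called in either direction. Cul3, the scaffold of the ligase that KEAP1 serves, had 66.6 CPM in guinea pig against 93.9 to 152 CPM in naked mole-rat, and Gsk3b, a kinase that marks NRF2 for another ligase, had 35.7 CPM in guinea pig against 114 to 164 CPM in naked mole-rat. These 2 genes were among the 4 below the naked mole-rat range, while 7 other genes of the list lay above it, as Keap1 did. Cand1, which acts on cullin ligases, had 77.8 CPM in guinea pig against 69.5 to 197 CPM in naked mole-rat, and Crebbp, an NRF2 coactivator, had 403 CPM in guinea pig against 312 to 410 CPM in naked mole-rat. None of the genes in these lists passed the comparison of O with Y with edgeR.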

How the data were processed

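Per the study's methods, rRNA-depleted directional libraries were sequenced as 150 bp paired ends, trimmed with Trim Galore, mapped with HISAT2 to HetGla_female_1.0 or Cavpor3.0 and quantified with SeqMonk. The submitters' processing notes name Trim Galore 0.6.1 and HISAT2 2.1.0, versions other than those given in the study's methods. The deposited values are raw counts per gene entry. Whether counting used strand was not stated in those sources. Naked mole-rat tables were joined by entry, and CPM was computed on column totals with pandas 2.3.3. Rows of 1 symbol were summed, and 26 date-like symbols in each table stayed unmatched. Symbols, not established orthology, matched 15110 genes between species, and 10298 of them were compared, those that reached 100 counts either in the guinea pig library or in all naked mole-rat libraries. The guinea pig library has exact intervals (scipy 1.17.1), which, like the limit that 0 counts allow (3 counts), cover counting error only. O and Y libraries were compared with edgeR 4.0.16 in R 4.3.3 (filterByExpr, TMM, quasi-likelihood test, Benjamini-Hochberg, 0.05), with DESeq2 1.42.0 as an alternative. The scripts were tested on simulated data. No 2 naked mole-rat libraries agreed within sampling noise, and each is a separate female. Y and O libraries that share a number did not deviate together (r = 0.04), which with 2 libraries a letter cannot exclude a pairing.

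The 10 genes and all lists were chosen with earlier results of these data known. Named beside them are listed genes called in guinea pig and up to 4 of highest mean naked mole-rat CPM in each pathway list, other lists are given as sums and counts, some listed genes are not reported here, and Gclm was added after its values were seen. Other scalings, filters, folds, minimum counts and left-out libraries were tried, and leaving out replicates 1 and 5 together and either Cat row were added after seeing the data. The letters of 2 naked mole-rat libraries each are used as groups without knowing their meaning.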

Additional observations from a re-analysis of the deposited data

Results flagged for a closer look

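A library was marked as apart where its gap to the nearest other naked mole-rat library, divided by the range over the 5 libraries, exceeded Dixon's critical value. This was computed for 62 values and met by 16, in 15 of which replicate 1 was the highest, where chance marks about 5% of groups and 19% of all entries averaging at least 1 CPM were marked. Because most of the marks concern a single library, they are not independent of each other.

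Among the 10 antioxidant genes, replicate 1 was apart for Cat (gap over range 0.837), Prdx1 (0.808), Gpx4 (0.796) and Gpx1 (0.734). It did not meet the criterion for the other 6 genes. Replicate 2 was apart for the ratio of Gpx4 to Gpx1 (0.763), where it had 1.24 and the other 4 libraries 0.561 to 0.722.

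Replicate 1 was also apart for the named partners Gsta4 (1, with 1.18 CPM in replicate 1 and 0 counts in the others), Sod3 (0.923), Tkt (0.819), Idh1 (0.810) and Ftl (0.766). Of summed lists it was apart for immune markers (0.812), granulosa markers (0.786), glutathione genes (0.786), oxidative phosphorylation (0.775), NADPH supply (0.757) and stroma markers (0.746). The immune sum in replicate 1 was mostly Cd74 (98.6 CPM). The cause of these gaps was not tested.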

How the results depend on the processing

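In the comparison of O with Y, edgeR called 0 entries, DESeq2 71, edgeR with no filter 66, with at least 10 counts in each library 13, and with the number after the letter as a replicate block 56, none of them among the 10 genes. Libraries of the same number did not deviate together (r = 0.04 across 15079 entries), so the block is given here only. Leaving out 1 library gave 4 (replicate 5) to 494 (replicate 4) called entries, with 162 without replicate 2 and 210 without replicate 3, and 0 to 1 of the 10 genes. That gene was Cat without replicate 3 (edgeR log2 ratio 10.5, adjusted p = 0.0035), where the remaining Y library had 0 Cat counts, so the size depends on the prior count, and a lone library is assumed to vary like the others. Log2 ratios of O to Y changed sign for Prdx3 on plain totals (0.025) and when 1 library was left out for Sod2 (-0.064 to 0.51), Gpx4 (-0.061 to 0.68), Prdx3 (-0.41 to 0.27), Txnrd1 (-0.11 to 0.34) and Keap1 (-1.18 to 0.28).

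In the species contrast, leaving out 1 naked mole-rat library gave 0 to 2 of the 10 genes more than 4 times above every library, 4 to 6 above and 1 to 2 below. The 2 called genes, Cat and Nfe2l2, came without replicate 1 and entered the contrast only through guinea pig. Prdx3 joined Sod1 below the range without replicate 3. Without replicates 1 and 5 there were 3 called genes, with Keap1 added, and 7 above the range, where 17.5% of all genes were called higher (8.95% with all 5 libraries). Median-of-ratios scaling put Txnrd1 above the range as well, giving 5, and either Cat row alone left 3. The cause of these changes was not tested. With 1 guinea pig library and 2 libraries a letter, the spread between guinea pigs was not measured, and the log2 ratios of O to Y had SEs of up to 1.65 (Cat).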

Other observations

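Genes for selenium use bear on Gpx1, Gpx4 and Txnrd1, whose proteins need selenocysteine. Of 16 genes for selenoprotein synthesis and further selenoproteins, all had at least 1 CPM in every naked mole-rat library. Guinea pig lay below the naked mole-rat range for 9 and above it for 5 (29.1% and 37.2% of all genes). The median log2 ratio to the naked mole-rat mean was -1.49, where all genes had 0.12. Of the 16, 3 were called lower (8.34% of all genes) and 0 higher (8.95%). Pstk, the kinase of the selenocysteine tRNA pathway, was called lower, with 3.96 CPM in guinea pig (3.21 to 4.83), against 22.4, 60.9, 94.9, 80.5 and 58.9 CPM in naked mole-rat replicates 1 to 5. Selenop, a selenium carrier, was called lower with 21.7 CPM in guinea pig against 126 to 318 CPM in naked mole-rat, and Selenom was called lower with 0.530 CPM in guinea pig against 14.8 to 39.0 CPM in naked mole-rat. Pstk and Selenom, with 97 and 13 counts in guinea pig, entered the contrast only through naked mole-rat. Secisbp2, which binds the element that recodes the stop codon, had 150 CPM in guinea pig against 98.3 to 212 CPM in naked mole-rat, and Selenof had 62.7 CPM in guinea pig against 105 to 172 CPM. The selenoenzymes Gpx1, Gpx4 and Txnrd1 lay within the naked mole-rat range.

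Oxidative phosphorylation genes, with 11 of 20 listed symbols found in naked mole-rat and 9 in guinea pig, summed to 850 CPM in guinea pig and to 1544, 563, 601, 569 and 784 CPM in naked mole-rat replicates 1 to 5. Several symbols, such as Atp5a1 and Atp5f1a, had an entry in only 1 species. The guinea pig and naked mole-rat sums therefore cover different sets of entries and are not compared. Replicate 1 was highest for 9 of the 11 (42.9% of all entries). None of 7 genes tested was called between species, where 8.95% of all genes were called higher and 8.34% lower.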
